A study of Mus musculus with 24 samples.

Results

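The promoters of the nuclear genes of the mitochondrial respiratory chain were followed in peak lists from assay for transposase-accessible chromatin sequencing (ATAC-seq) of 2 classes of mouse cortical neuron. Protein-coding genes of the NCBIM37 (mm9) annotation on chromosomes 1 to 19 and X were taken when their symbol began with Nduf, Uqcr, Atp5, Cox4, Cox5, Cox6, Cox7 or Cox8, together with Sdha, Sdhb, Sdhc and Sdhd. This gave 91 genes of 22208 in the annotation. A gene was counted as having a promoter peak in a list when at least 1 base of a peak lay within 1000 bases of a transcription start site of any of its transcripts. The 91 genes comprised 38 named as complex I subunits, 4 complex I assembly factors, 4 genes of complex II, 8 of complex III, 18 of complex IV, 15 of complex V and 4 genes that carry the name prefix only (Atp5s, Atp5sl, Atp5l-ps1 and Cox4nb).

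The study compared developing callosal projection neurons, labelled by Cux2-CreERT2:Ai14, with corticothalamic projection neurons, labelled by Tle4-2A-CreERT2:Ai14, at an embryonic age (E18.5) and postnatal days 1, 3, 7, 21 and 48 (P1 to P48), where the 4 ages up to P7 are called early here and both later ages late. The labels give the strain as C57BL/6 and the methods a mixed C57BL/6J background, and all animals used carried a tamoxifen-inducible Cre and the tdTomato reporter. Both classes received 4-hydroxytamoxifen at E17.5 and no group lacked Cre. Neurons of the somatosensory and motor cortex were sorted by tdTomato fluorescence, animals of both sexes were pooled within each library, and a Cux2 driver also marks a few interneurons. The 24 libraries (2 for each class and age) were reduced by the authors to 12 lists with both replicates pooled, so a list carries no replicate error and the only repeats are the ages. The lists held 6540 to 45649 peaks, the shortest being Tle4 P21 and the longest Cux2 P48. Among promoters of marker genes, Tle4 had a peak in all 6 Tle4 lists and in all 6 Cux2 lists, and Cux2 had one in 4 Cux2 lists and no Tle4 list. The other corticothalamic markers did not favour the Tle4 lists. Foxp2 was in 3 lists of each class, and Bcl11b in 4 Cux2 lists and 1 Tle4 list. Of the other callosal markers, Lhx2 was in 4 and Cux1 in 2 Cux2 lists, and neither was in a Tle4 list. Of 5 interneuron markers 4 had a promoter peak in at least 1 Cux2 list and none in a Tle4 list, and the 3 endothelial markers had none. Of 4 astrocyte markers 3 had one, mainly in Cux2 lists (Gfap in 5 Cux2 and 0 Tle4 lists, and a mean over the 4 genes of 2 Cux2 and 0.25 Tle4 lists). Of 5 markers of the oligodendrocyte lineage 1 had one (Olig1, in 1 Cux2 list), and of 4 microglia markers 1 (Tmem119, in 1 Tle4 list). Of 6 markers of projection neurons 4 had one in at least 1 list, and Fezf2 was among those with none. The part of other cell types in the results was not tested.

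The respiratory chain is a set of protein complexes in the inner mitochondrial membrane. Complexes I and II pass electrons from NADH and succinate to ubiquinone, complex III passes them to cytochrome c, complex IV passes them to oxygen, and complex V uses the resulting proton gradient to make ATP. Nuclear DNA encodes most of their subunits and mitochondrial DNA encodes the rest, and the complexes are assembled from both. Neurons depend on this pathway for the ATP that their ion pumps and synapses use. Several complex IV subunits exist as a widely expressed form and a form restricted to muscle, lung or testis.

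Promoter sequences of 8 members are given because they are the tallest promoter of each complex and the 3 tallest of all, a promoter listed at late ages only (Ndufa4) and a muscle isoform that was in no list (Cox7a1). Each is the 150 bases immediately before the annotated start site, 5′ to 3′ on the gene's strand, read from the NCBIM37 genome. Capitals mark the motifs searched, which are described with the promoter sequences further on. They lie at chr13:86186510-86186659 (minus strand) for Cox7c, chr19:4012807-4012956 (minus) for Ndufv1, chr19:3912718-3912867 (minus) for Ndufs8, chr9:50411955-50412104 (minus) for Sdhd, chr11:4604346-4604495 (minus) for Uqcr10, chr10:127520179-127520328 (plus) for Atp5b, chr6:11857447-11857596 (minus) for Ndufa4 and chr7:30969040-30969189 (plus) for Cox7a1.
Cox7c: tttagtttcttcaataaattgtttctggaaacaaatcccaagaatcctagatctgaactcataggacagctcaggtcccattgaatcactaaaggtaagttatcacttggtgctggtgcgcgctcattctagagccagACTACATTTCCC
Ndufv1: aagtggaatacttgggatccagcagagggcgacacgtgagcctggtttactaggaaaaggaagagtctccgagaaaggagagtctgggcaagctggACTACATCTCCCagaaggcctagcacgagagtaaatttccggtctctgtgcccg
Ndufs8: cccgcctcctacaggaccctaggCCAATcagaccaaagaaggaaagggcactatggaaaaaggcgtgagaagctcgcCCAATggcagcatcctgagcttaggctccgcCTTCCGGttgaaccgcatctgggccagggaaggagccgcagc
Sdhd: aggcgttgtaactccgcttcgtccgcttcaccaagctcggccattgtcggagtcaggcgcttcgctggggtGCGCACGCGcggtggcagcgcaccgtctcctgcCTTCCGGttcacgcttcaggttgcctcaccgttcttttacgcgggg
Uqcr10: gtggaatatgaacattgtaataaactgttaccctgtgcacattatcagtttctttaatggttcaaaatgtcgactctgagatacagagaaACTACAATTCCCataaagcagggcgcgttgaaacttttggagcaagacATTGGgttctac
Atp5b: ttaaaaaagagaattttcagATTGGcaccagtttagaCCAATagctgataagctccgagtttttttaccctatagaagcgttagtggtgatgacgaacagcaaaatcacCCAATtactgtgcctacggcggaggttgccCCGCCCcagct
Ndufa4: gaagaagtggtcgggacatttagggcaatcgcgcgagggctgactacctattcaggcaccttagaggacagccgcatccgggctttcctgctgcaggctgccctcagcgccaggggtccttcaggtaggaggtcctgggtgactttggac
Cox7a1: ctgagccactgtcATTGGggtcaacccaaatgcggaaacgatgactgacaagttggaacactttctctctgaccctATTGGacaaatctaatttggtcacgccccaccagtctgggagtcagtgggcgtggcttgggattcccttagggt

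With all peaks kept, respiratory chain promoters were listed more often than promoters at large in all 12 lists, and their share was lower at late ages in the Tle4 lists. In the Cux2 lists, 83.5% of the 91 members had a promoter peak at E18.5, 78.0% at P1, 85.7% at P3, 75.8% at P7, 52.7% at P21 and 85.7% at P48. All protein-coding genes stood at 46.5%, 40.6%, 43.9%, 40.5%, 30.1% and 42.3% in the same lists. In the Tle4 lists, 69.2% of the members had a promoter peak at E18.5, 69.2% at P1, 73.6% at P3, 51.6% at P7, 25.3% at P21 and 40.7% at P48, beside 34.7%, 35.8%, 40.1%, 27.7%, 16.3% and 21.8% of all genes. Cux2 P21 was therefore low between 2 high ages, whereas Tle4 P7, P21 and P48 were all below the 3 youngest Tle4 lists.

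**Figure D1:**
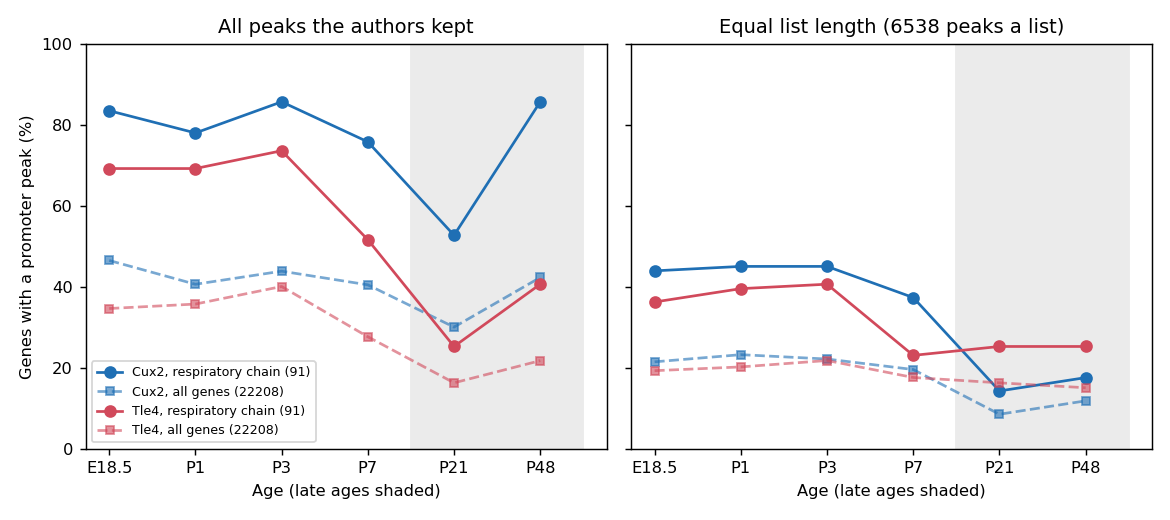
Share of genes with a promoter peak (y axis, percent) by age (x axis) for the 91 respiratory chain genes (circles, solid lines) and all 22208 protein-coding genes (squares, dashed lines) in Cux2 (blue) and Tle4 (red) lists, with all peaks (left) and with the 6538 peaks of highest −log10 p in each list (right). With all peaks the members run from 25.3% (Tle4 P21) to 85.7% (Cux2 P3 and P48), and with equal list length from 14.3% (Cux2 P21) to 45.1% (Cux2 P1 and P3).

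Averaged over ages, the member share in the Cux2 lists was 80.8% ± 4.62 (SD, n = 4 lists) early and 69.2% ± 23.3 (n = 2) late. In the Tle4 lists it was 65.9% ± 9.75 (n = 4) early and 33.0% ± 10.9 (n = 2) late. The late minus early difference was thus -11.5 percentage points in Cux2, which is less than the spread between its 2 late ages, and -33.0 points in Tle4, which is larger than the spread between ages. All genes differed by -6.69 points in Cux2 and by -15.5 points in Tle4. The excess of the members over all genes was 37.9 points ± 2.78 (n = 4) early and 33.0 ± 14.6 (n = 2) late in Cux2, and 31.4 ± 4.97 (n = 4) early and 13.9 ± 7.0 (n = 2) late in Tle4.

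Cux2 exceeded Tle4 at every age, by 8.79 points at P1 as the smallest and 45.1 points at P48 as the largest difference (mean 22.0 ± 13.4, SD over 6 ages), beside a mean of 11.3 ± 6.19 points for all genes. List length moved with both comparisons, since the Tle4 list was the shorter at all 6 ages (19514 against 21758 peaks at P1 and 6540 against 37432 at P21) and the authors called each list separately. The names of the Cux2 lists also carry a version mark that the Tle4 names lack, and whether both classes were processed alike is not given in the sources used here. When the same number of peaks (6538, highest −log10 p first) was taken from each list, the mean class difference was 2.20 points, with Tle4 above Cux2 at both late ages (25.3% against 14.3% at P21 and 25.3% against 17.6% at P48). All genes turned the same way, with 16.3% in Tle4 against 8.53% in Cux2 at P21 and 15.1% against 11.8% at P48. With this equal length the late minus early difference was -26.9 points in Cux2 and -9.62 points in Tle4, so it kept its sign in both classes while the order of the classes turned. The Tle4 stages then overlapped, since Tle4 P7 stood at 23.1%, below both late Tle4 lists. The Cux2 stages did not, with 37.4% to 45.1% at the early ages. All genes were also lower in the late lists at equal length. They stood at 19.6% to 23.3% in the early Cux2 lists and at 17.6% to 21.8% in the early Tle4 lists.

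Peak height was described by the percentile rank, within a list, of the fold enrichment over background at the summit of the tallest promoter peak, on which 100 is the tallest peak of the list. The median member rank in the Cux2 lists was 80.4 at E18.5, 75.1 at P1, 76.3 at P3, 78.9 at P7, 70.0 at P21 and 58.0 at P48. In the Tle4 lists it was 68.6, 76.3, 73.5, 64.6, 59.9 and 57.4 at the same ages. Genes with a promoter peak at large had median ranks of 71.3 to 72.8 in the early and 57.8 and 59.6 in the late Cux2 lists, and of 69.2 to 71.7 in the early and 60.9 and 55.6 in the late Tle4 lists. The members that were listed therefore ranked near other listed promoters, above them by at most 12.3 points (Cux2 P21) with a lowest difference of -4.60 points (Tle4 P7).

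The genes differed widely in how many lists held them. Of the 91 members 20 (22.0%) had a promoter peak in all 12 lists, beside 2940 of all genes (13.2%), and 9 (9.89%) had none in any list, beside 45.7% of all genes. The other members had a peak in 7 to 11 lists (43 genes) or in 1 to 6 lists (19 genes). The 20 present throughout were 10 subunits of complex I (among them Ndufa3, Ndufa5, Ndufb2, Ndufb5, Ndufs8 and Ndufv1), the assembly factor Ndufaf2, Uqcr10 of complex III, Cox6b1, Cox7a2, Cox7c and Cox8a of complex IV, Atp5b, Atp5f1 and Atp5g1 of complex V, and Atp5s. No gene of complex II was among them.

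**Figure D2:**
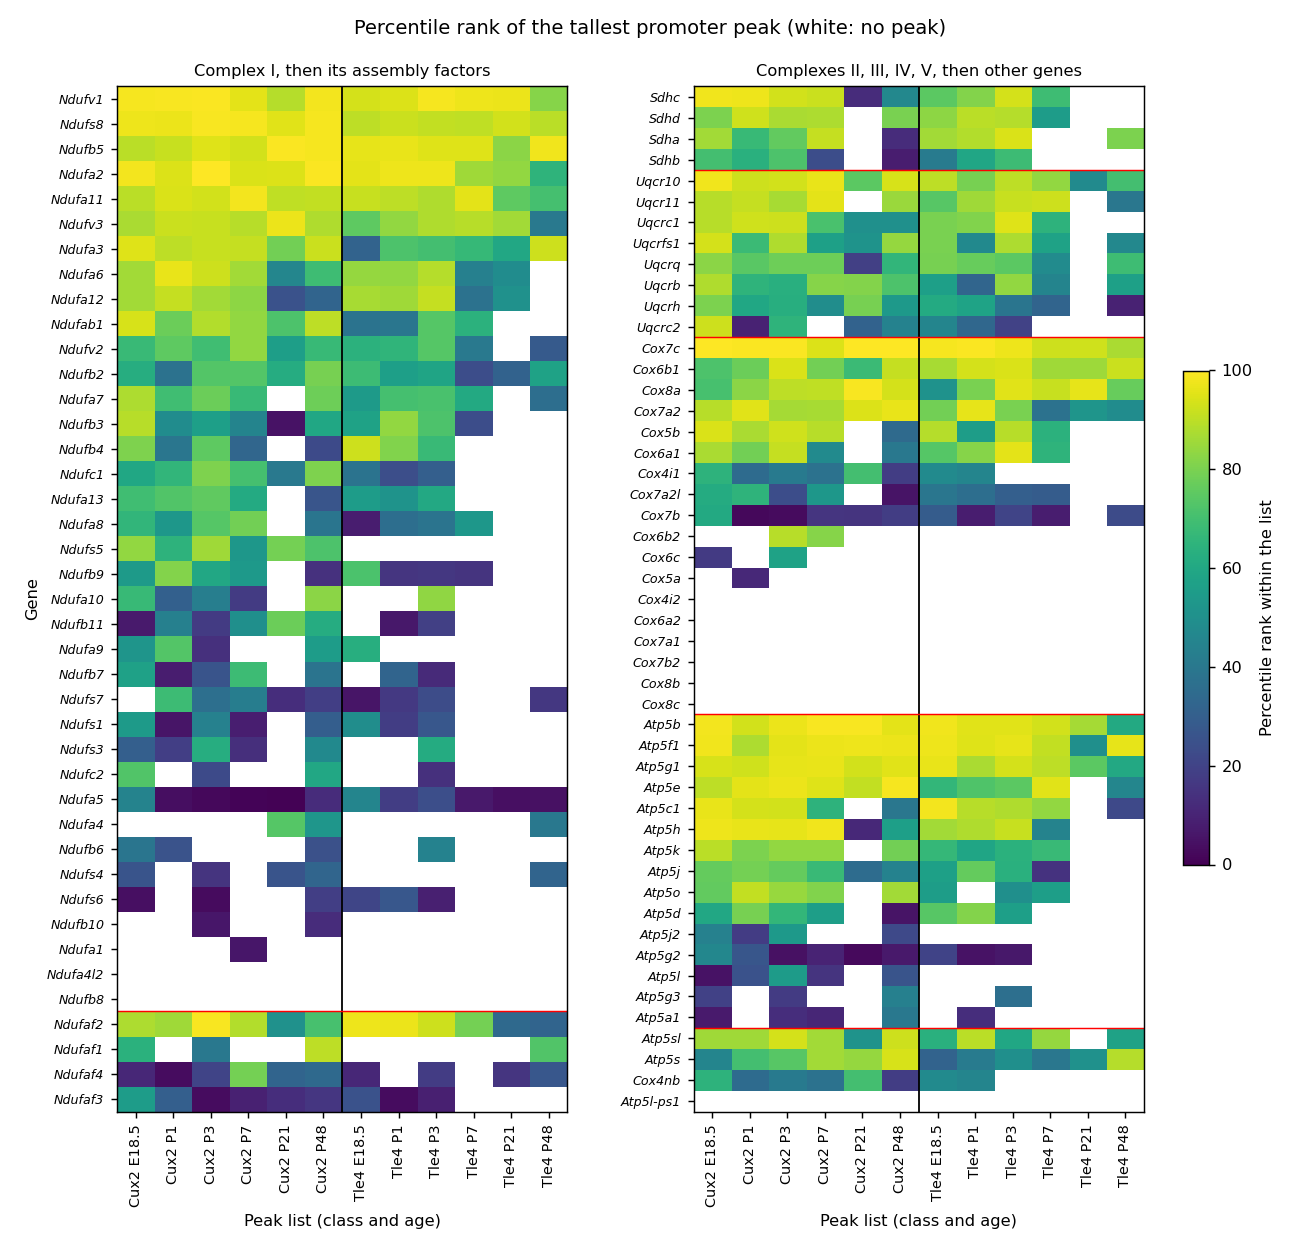
Percentile rank of the tallest promoter peak (colour, 0 to 100) of 90 of the 91 genes (rows, grouped by complex and separated by red lines) in the 12 peak lists (columns, Cux2 left and Tle4 right of the black line), with white for no peak. Cox7c, Ndufv1 and Ndufs8 stay above 80 in all 12 lists, whereas 9 rows are white throughout.

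In complex I, the entry point for electrons from NADH, the tallest promoter peaks were those of Ndufv1, which encodes the subunit that binds NADH, and of Ndufs8, an iron-sulfur subunit. Ndufv1 (chr19:4007497-4012806) had a fold enrichment of 20.8, 23.8, 22.3, 15.4, 13.7 and 17.1 in the Cux2 lists from E18.5 to P48, and of 17.8, 17.9, 18.1, 18.2, 17.0 and 11.4 in the Tle4 lists. Ndufs8 (chr19:3908870-3912717) had 19.1, 21.1, 20.9, 18.2, 15.6 and 17.3 in Cux2 and 16.4, 16.8, 14.2, 14.8, 15.3 and 12.4 in Tle4. Both ranked above 80 in every list, and the Ndufs8 rank in each Cux2 list was above that in the Tle4 list of the same age. Complex I subunits with a peak numbered 35 of 38 in the Cux2 P48 list and 15 of 38 in the Tle4 P48 list. Ndufs5, another complex I subunit, had a peak in all 6 Cux2 lists, with fold enrichments of 8.92 to 13.7, and in no Tle4 list. Ndufa1 was listed once (Cux2 P7, fold enrichment 6.39), Ndufb10 in 2 Cux2 lists (6.93 at P3 and 6.66 at P48), and Ndufb6 and Ndufc2 in 3 Cux2 lists and 1 Tle4 list each, at 7.66 to 9.39 and 7.38 to 11.9. Ndufa9 was in 5 lists (7.72 to 13.1), and Ndufa10 (7.27 to 12.7), Ndufs3 (7.05 to 10.6) and Ndufs6 (6.36 to 9.32) were in 6. The assembly factor Ndufaf1 was in 4 lists at 9.09 to 13.5. These sparsely listed genes were found more often in Cux2 than in Tle4 lists, except Ndufs6 with 3 of each. All genes leaned the same way. Of those with a peak in either list, 47.3% at P21 and 49.1% at P48 had it in Cux2 only, against 2.78% and 1.05% in Tle4 only. The pattern is therefore not read as particular to these members.

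Ndufa4 was the only member that was absent from all 8 early lists and present later. Its protein was first assigned to complex I and later to complex IV. Its promoter (gene at chr6:11850373-11857446) had a fold enrichment of 11.5 in Cux2 P21, 9.35 in Cux2 P48 and 8.89 in Tle4 P48, and no peak in the early lists or in Tle4 P21. In an exact two-sided permutation of stage within class, with an absent peak set to rank 0, its mean rank was 41.6 points higher late (p = 0.0222), which did not pass after adjustment over the 12059 genes with a peak in any list (adjusted p = 0.0743). Ndufa4 was singled out because it had no early peak. The direction of this permutation was therefore fixed beforehand, and nothing is read from its p. Among genes with no early Cux2 peak, 2.48% of all genes and 1 of 10 members (Ndufa4) had a peak in both late Cux2 lists. Ndufs4, an accessory subunit, had a peak in 3 of 4 late and 2 of 8 early lists, at fold enrichments of 7.81 to 8.47.

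Complex II, which also works in the citric acid cycle, had all 4 genes listed at E18.5, P1 and P3 in both classes. At the later ages it had 4, 1 and 4 genes listed in Cux2 (P7, P21 and P48) and 2, 0 and 1 in Tle4. All protein-coding genes stood at 40.5%, 30.1% and 42.3% in these Cux2 lists and at 27.7%, 16.3% and 21.8% in the Tle4 lists. Sdha, the flavoprotein, had fold enrichments of 14.2, 12.3, 12.0 and 13.5 in the early Cux2 lists, no peak at P21 and 6.68 at P48, and in Tle4 15.2, 15.6 and 15.5 from E18.5 to P3, no peak at P7 and P21 and 11.2 at P48. Sdhb, the iron-sulfur subunit, had 11.6, 11.8, 11.5 and 7.61 in the early Cux2 lists, none at P21 and 6.18 at P48, and in Tle4 9.90, 11.4 and 11 and then none from P7 on. Sdhc and Sdhd, the membrane anchors, had a peak in all 8 early lists. Sdhc had fold enrichments of 13.8 to 21.4 in the early Cux2 lists, 7.57 at P21 and 8.97 at P48, and of 11.6 to 15.1 in the early Tle4 lists, with no late Tle4 peak. Sdhd had 12.6 to 18.2 in the early and no peak or 11.8 in the late Cux2 lists, and 10.6 to 16.0 in the early Tle4 lists with no late peak. By the exact permutation of ranks, Sdhc was 72.6 points lower late and Sdhd 63.2 points lower (each exact p = 0.00444, the smallest possible, and adjusted p = 0.0260 over all 12059 genes). By the same exact permutation Sdha and Sdhb were 50.5 and 47.8 points lower (p = 0.0400 and 0.0222) and did not pass after adjustment (adjusted p = 0.113 and 0.0743). These ranks count an absent peak as 0 and so move with list length. The permutation moved stage labels in each class separately. The Cux2 and Tle4 lists of an age thus counted as separate units, and its p-values may be too small.

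In complex III, 8 of 8 genes were listed in 7 of 12 lists, among them the first 3 ages of both classes. Tle4 P21, where 16.3% of all genes were listed, held 1 of the 8. That gene was Uqcr10, a small subunit (chr11:4601976-4604345), with fold enrichments of 19.5, 17.96, 16.1, 16.1, 11.6 and 14.6 in Cux2 and 16.3, 13.8, 14.0, 13.4, 10.7 and 10.5 in Tle4. The highest values were at E18.5 in both classes, and the 4 late values, 10.5 to 14.6, overlapped the 8 early values, 13.4 to 19.5.

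Complex IV, the terminal oxidase, divided by isoform. Cox7c, one of its small subunits, had the tallest promoter of all 91 genes by mean rank (96.7). Its promoter (gene at chr13:86184421-86186509) had fold enrichments of 24.5, 25.1, 22.4, 14.7, 22.4 and 19.9 in Cux2 and 21.7, 22.6, 17.0, 15.5, 15.1 and 12.0 in Tle4, and the value in Cux2 P7 was the lowest of its class. Of the 8 isoforms restricted to muscle, lung or testis or induced by low oxygen (Cox4i2, Cox6a2, Cox6b2, Cox7a1, Cox7b2, Cox8b, Cox8c and Ndufa4l2), 7 had no promoter peak in any list, and Cox6b2, a testis form, had one in Cux2 P3 (14.7) and Cux2 P7 (11.5). The partners Cox6b1, Cox7a2 and Cox8a were in all 12 lists, Cox7b in 11, Cox6a1 in 9 and Cox4i1 in 8. Widely expressed genes were also among the least listed: Cox5a had 1 peak (Cux2 P1, 8.41) and Cox6c had 2 (Cux2 E18.5, 7.58, and Cux2 P3, 10.2). Expression was not measured here. The remaining members without any peak were Ndufb8 and Atp5l-ps1.

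In complex V, the ATP synthase, Atp5b, which encodes the catalytic beta subunit (chr10:127520329-127527447), was the tallest. Its fold enrichments were 19.7, 18.4, 18.52, 18.7, 18.6 and 15.5 in Cux2 and 21, 18.3, 15.8, 15.9, 13.8 and 9.96 in Tle4. Atp5a1, the alpha subunit with which Atp5b forms the catalytic head, was listed in 5 lists at 6.84 to 8.61. The 3 genes of the c ring, which have different promoters and encode the same mature protein, also differed: Atp5g1 was in 12 lists, Atp5g2 in 9 and Atp5g3 in 4 (7.70 to 8.95). Atp5l was in 5 Cux2 lists (6.66 to 10.0) and Atp5j2 in 4 (7.48 to 9.97), and neither was in a Tle4 list. All 15 genes had a peak in Cux2 E18.5, P3 and P48, against 3 in Tle4 P21, the shortest list. All protein-coding genes stood at 42.3% to 46.5% in those Cux2 lists and at 16.3% in Tle4 P21.

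Loss of the peak at late ages was examined among members listed at all 4 early ages of a class. In Cux2, 65 members met this, and 21 of them (32.3%, beside 28.0% of all such genes) had no peak at P21. All 65 had a peak at P48, where 8.58% of all such genes had none. The 21 included Sdha, Sdhb and Sdhd, Uqcr11, Cox5b and Cox6a1, and Atp5c1, Atp5d, Atp5k, Atp5l and Atp5o. In Tle4, 46 members met it, and 24 (52.2%, beside 41.2%) had no peak at P21 and 15 (32.6%, beside 28.7%) had none at P48. The member shares at P21 and at Tle4 P48 were within 11 percentage points of the share of all genes.

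Presence in one class only was read at the same age. At P48, 78 members had a peak in either list and 41 (52.6%) had it in Cux2 only, beside 49.1% of all genes, and at P21 25 of 48 (52.1%) had it in Cux2 only, beside 47.3%. A peak in the Tle4 list only was rare among all genes too, at 1.68%, 4.27%, 4.86%, 2.27%, 2.78% and 1.05% from E18.5 to P48. Among the members it was found for 1 gene at E18.5 (Ndufs7), 2 at P1 (Atp5a1 and Ndufs6), 1 at P3 (Ndufb6) and 0 at P7, P21 and P48. The Cux2-only member shares at P21 and P48 were close to those of all genes, and the Cux2-only shares at the earlier ages were not compared.

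Peak heights were tested where a comparison without missing values was possible. This needed a promoter peak in all 12 lists, which left 2940 genes and 20 of the 91 members, and since the shortest lists decide which genes pass, those 20 do not stand for the 91. The log2 fold enrichment was centred on the median of the genes tested in each list, and stage was tested with limma and class as a covariate, with Benjamini-Hochberg adjustment over the 2940 genes. This stage fit counted the Cux2 and Tle4 lists of an age as separate units, so its p-values may be too small. Before centring, the median height of the 2940 promoters was lower late by 0.31 log2 units in Cux2 (-0.31) and by 0.43 in Tle4 (-0.43), so the values below are relative to that fall. Of the 20 members 4 passed as higher late, where 18% of all genes did, and 1 as lower late, where 11.9% did. The median late minus early difference was 0.13 over the 20 members and 0.04 over all genes tested.

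Atp5s, a gene named for coupling factor B of the ATP synthase (chr12:70825949-70845645), had fold enrichments of 9.22, 12.6, 11.8, 12.2, 12.9 and 14.6 in Cux2 and 9.34, 10.2, 9.72, 9.68, 10.8 and 12.2 in Tle4. On the centred log2 scale its 4 late lists were above all 8 early lists, by 0.63 ± 0.11 (SE) on average (limma, adjusted p = 0.000258). Cox8a, the widely expressed form of a small complex IV subunit, had 11.6, 14.8, 15.0, 13.2, 18.3 and 14.5 in Cux2 and 10.6, 13.9, 16.0, 15.3, 16.6 and 10.9 in Tle4. Its centred late values were higher by 0.48 ± 0.13 (adjusted p = 0.00682), with overlap between the stages because 2 early Tle4 values lay above the lowest late value. Ndufb2, an accessory subunit of complex I, with fold enrichments of 8.60 to 12.2, was higher late by 0.35 ± 0.10 (adjusted p = 0.00938), with no overlap of the centred values. Ndufb5, another accessory subunit, was higher by 0.30 ± 0.09 (adjusted p = 0.0119) with overlap, its Tle4 values being 0.25 ± 0.04 (SD, n = 4) early and 0.35 ± 0.27 (n = 2) late.

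Ndufaf2, an assembly factor of complex I, had fold enrichments of 14.6, 15.7, 21.1, 12.7, 9.74 and 10.8 in Cux2 and 20.3, 19.3, 14.7, 12.7, 10.0 and 8.47 in Tle4. Its centred late values were all below the early ones and lower by 0.36 (-0.36 ± 0.11, adjusted p = 0.0129). Without centring, none of the 20 members passed as higher late and 9 passed as lower (among them Atp5b, Atp5f1, Atp5g1, Ndufaf2, Ndufv1 and Uqcr10), and of all genes 22 (0.748%) passed as higher and 1764 (60%) as lower, against 530 and 350 with centring. Atp5s, Cox8a, Ndufb2 and Ndufb5 were thus higher relative to the median of the promoters tested. None of these genes passed by stage in the exact permutation of ranks among all peaks of a list. In that exact permutation Atp5s was 24.6 points higher late (p = 0.0133, adjusted p = 0.0526) and Cox8a 9.78 points (p = 0.276). Ndufb2 and Ndufb5 differed by 0.949 and 0.431 points (exact permutation, p = 0.924 and 0.907). With a fit that needed a peak in at least 6 lists (67 members), Ndufb2 and Ndufb5 did not pass (limma, adjusted p = 0.164 and 0.228). The members higher late in it were Atp5s, Cox8a, Ndufa10 and Ndufb11 (6% of all genes were), and 7 were lower (15.7% of all genes). This fit leaves out absent peaks. Ndufa10, and Atp5d and Cox5b among the lower, had a late peak in Cux2 P48 only, so nothing is read from their calls. Ndufb11 had late peaks in Cux2 lists only. In the exact permutation, with absent peaks at 0, Ndufa10 was lower late (-9.56 points). Ndufb5 also lost its call without Cux2 P21. Cox7c, Ndufv1, Ndufs8, Uqcr10 and Atp5b did not pass in either direction after centring (differences of -0.06 to 0.15).

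**Figure D3:**
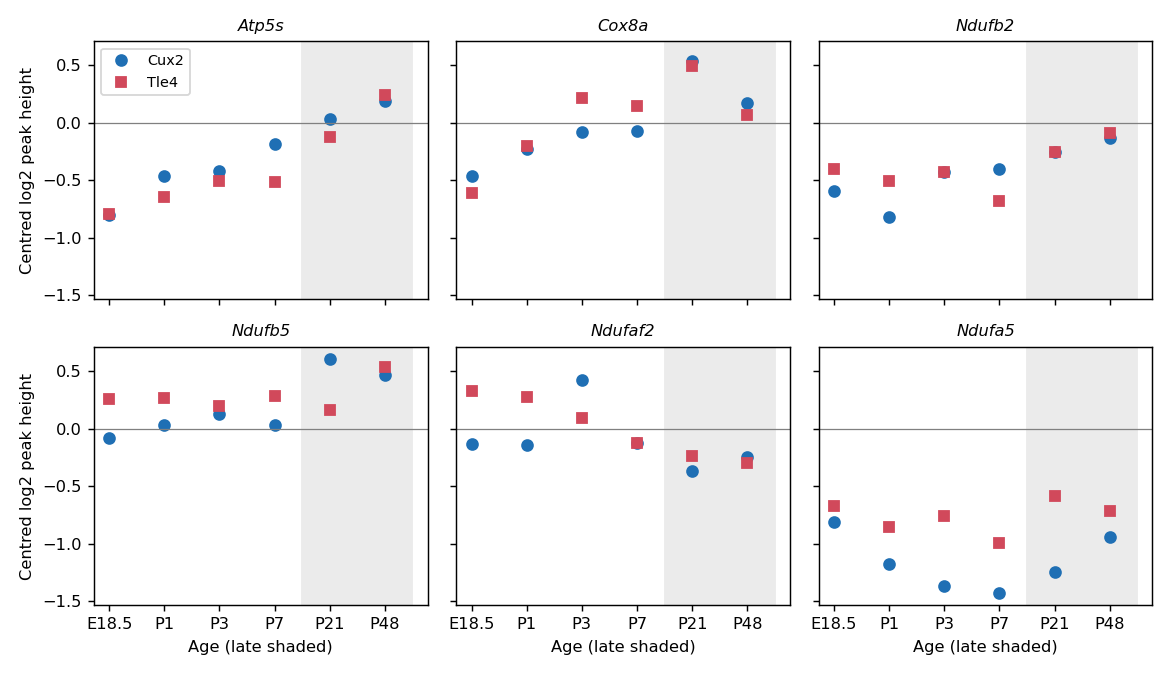
Log2 fold enrichment of the tallest promoter peak, centred on the median of the 2940 genes tested in each list (y axis), by age (x axis, late ages shaded) for the 6 members that passed a test, with 1 point a list (circles Cux2, squares Tle4). Atp5s runs from about the lowest values at E18.5 to the highest at P48 in both classes, and Ndufa5 in Cux2 lies below Tle4 at all 6 ages.

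Classes were compared at matched ages in a limma fit of the same 2940 genes with age as a factor. One member of 20 passed, as lower in Cux2, where 0.782% of all genes did, and none passed as higher in Cux2, where 0.68% did. This was Ndufa5, a subunit of the arm of complex I that faces the matrix, whose promoter was among the lowest listed. It had fold enrichments of 9.17, 7.64, 6.10, 5.13, 5.30 and 6.69 in Cux2 and 10.2, 8.80, 8.15, 6.95, 7.84 and 6.32 in Tle4. The centred value was lower in Cux2 at all 6 ages, by 0.40 on average (-0.40 ± 0.09, limma, adjusted p = 0.0293). Before centring, the fold enrichment at P48 was higher in Cux2, as was the rank within the list (12.8 against 4.54). By exact permutation of ranks the class difference was -6.37 points (p = 0.219, adjusted p = 0.463). The call was lost under quantile normalization, on the rank scale and on leaving out any 1 of the 8 lists from P1 to P21. Without centring Ndufa5 did not pass, and Cox7a2, Cox7c, Ndufa3 and Ndufs8 passed as higher in Cux2 (all genes 4.29% higher and 0.17% lower), so the direction of the members called by class turned with the scaling. With a peak in at least 6 lists, 6 of 66 members passed as higher in Cux2 (3.48% of all genes) and 2 as lower, Ndufa5 and Sdha (0.901%). In the first fit the next member by limma was Cox6b1 (-0.30 ± 0.08, adjusted p = 0.0688). For the class-by-stage difference no member passed, where 0.0% of all genes passed as more positive and 0.034% as more negative in Cux2. Ndufb5 (0.41 ± 0.16, limma, adjusted p = 0.433) and Ndufa3 (-0.51 ± 0.20, adjusted p = 0.456) were among the members with the lowest adjusted p. In the exact permutation of ranks 6 of 82 members (7.32%, beside 3.79% of all genes) had an unadjusted p under 0.05 for that difference, and 0 members and 0 of all genes passed after adjustment.

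Over the 82 members with any peak, the exact permutation of ranks by stage gave 17 members lower late and 0 higher after adjustment over 12059 genes (20.7%), beside 20.8% of all genes called in either direction. Among the 17 were Atp5c1, Atp5h and Atp5k, Cox5b and Cox6a1, Sdhc and Sdhd, Uqcr11 and Uqcrc1, and Ndufaf2. Their p-values treat the lists of both classes at an age as separate units and may be too small. For class, 64 sign patterns allow no p below 0.0312, and 11 members reached it, all with the higher rank in Cux2 (Ndufs5 by 73.0 points, Ndufc1 by 50.9, Ndufab1 by 48.5). These were 13.4% of the 82 members, near the 12.1% of all genes with an unadjusted p under 0.05, and none passed after adjustment (exact permutation, adjusted p = 0.257).

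Members' peaks lay at the start site. Over the 720 pairs of member and list with a peak, the median summit was 49 bases upstream of the nearest start site (-49, quartiles -99 and -10.8), and 89.4% of summits were within 250 bases, beside a median of -58 and 82.3% for all genes. Peak width had a median of 662 bases (697 for all genes). Another protein-coding gene started within 1000 bases on the opposite strand for 31 of the 91 members (34.1%), beside 12.0% of all genes, and a peak between such starts cannot be assigned to one of the 2 genes. Examples are Cox4i1 with Cox4nb, Atp5j with Gabpa, which encodes a subunit of an activator of respiratory chain genes, Ndufb5 with the mitochondrial ribosomal gene Mrpl47, Sdhd with Timm8b and Ndufaf2 with Ercc8. The same holds for Ndufa5 (Asb15), Ndufa4 (Phf14), Uqcr10 (Zmat5) and Sdha (Ccdc127).

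Base composition was read in windows of 300 bases, from 250 before to 50 after the start site. Members had a median of 56.0% G and C and 18 CpG dinucleotides, beside 55.3% and 12 for all genes. Windows with at least 55% G and C and an observed to expected CpG ratio of at least 0.65 were called CpG-rich, which held for 45 of 91 members (49.5%) and 7896 of all genes (35.6%). Among CpG-rich promoters the members were listed in 88.9% to 93.3% at the 4 early ages and P48 in Cux2, beside 66.1% to 77.5% of CpG-rich genes at large, and in 55.6% at Cux2 P21 beside 47.3%. In Tle4 they were listed in 82.2%, 80.0% and 86.7% at E18.5, P1 and P3 (59.3%, 61.7% and 68.5% of CpG-rich genes), in 57.8% at P7 (47.1%), in 22.2% at P21 (28.1%) and in 35.6% at P48 (35.9%). Against this background the members' excess was 8.24 to 25.7 points in the 10 other lists and -5.87 and -0.34 points in the late Tle4 lists. None of the 8 restricted isoforms was CpG-rich. Of the 20 members present in all lists 8 were (40%), beside 62.6% of all genes present in all lists. Among CpG-rich members 17.8% were in all lists, against 26.1% of the other members. For all genes these shares were 23.3% and 7.69%.

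**Figure D4:**
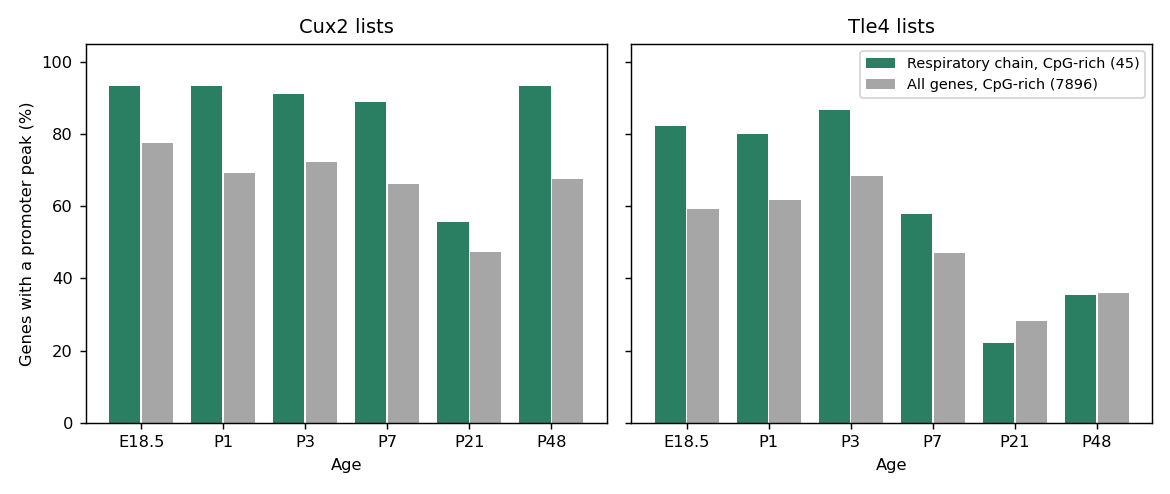
Share of CpG-rich promoters with a peak (y axis, percent) by age (x axis) in Cux2 (left) and Tle4 (right) lists, for the 45 CpG-rich members (green bars) and all 7896 CpG-rich genes (grey bars). The green bars exceed the grey ones except at Tle4 P21 (22.2% against 28.1%) and P48 (35.6% against 35.9%).

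Motifs of factors known at these promoters were searched on both strands in the same windows, and motifs may overlap. The NRF1 core (GCGCANGCG) was in 18 members (19.8%), beside 8.14% of all genes, and the ETS core (CCGGAAG), which GABP binds, in 18 (19.8%) beside 10.9%. YY1 letters (AAGATGG) were in 11 (12.1%, all genes 6.77%), the CRE (TGACGTCA) in 5 (5.49%, 2.31%), the nuclear receptor element (AAGGTCA) in 9 (9.89%, 3.95%) and TATAAA in 9 (9.89%, 13.5%). The SP/KLF box (GGGCGG) was in 43 (47.3%, 44.1%) and CCAAT in 35 (38.5%, 37.9%). In the sequences printed above, Sdhd holds an NRF1 core 79 bases and an ETS core 46 bases upstream (first base at -79 and -46), Ndufs8 holds an ETS core (-42) and CCAAT letters at -127 and -73, and Atp5b holds CCAAT letters on either strand at -130, -113 and -41. Of the 18 members with an NRF1 core 1 was in all 12 lists (5.56%, beside 19.3% of all genes with it), and of the 35 with CCAAT 12 were (34.3%, beside 20.8%).

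Cox7c, Ndufv1 and Uqcr10 share the letters ACTACA, then any 2 bases, then TCCC, which is the core of the element that ZNF143 binds. This motif was added after the sequences were seen, so its presence in those 3, which were chosen for their high ranks, is a description, and nothing is read from how many lists the members with it were in. It begins at -12 in Cox7c, -54 in Ndufv1 and -60 in Uqcr10, and 6 members held it (6.59%, which includes the 3 genes it was taken from, beside 2.48% of all genes), the others being Atp5o, Cox7b and Ndufa3. Of all genes with these letters 50.6% had a promoter peak in all 12 lists, beside 12.3% of those without.

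Other genes of the same pathway and of related pathways were read in the same way, as shares averaged over the early and the late lists of a class. Of 30 other electron carriers and assembly factors, 86.7% were listed early and 78.3% late in Cux2, and 70.0% and 43.3% in Tle4, and 8 of them were in all 12 lists. These included Cycs, the somatic cytochrome c, and the complex I assembly genes Ecsit and Foxred1 (mean ranks of 74.7, 96.6 and 95.8), whereas Cyct, the testis cytochrome c, was in none and Cyc1, the cytochrome of complex III, was in 6. Of 22 regulators, 80.7% and 75% were listed in Cux2 and 75% and 43.2% in Tle4. Nrf1 was in 9 lists, Tfam, which packages mitochondrial DNA, in 11, Gabpa in 10, Ppargc1a, the coactivator PGC-1alpha, in 8 and Ppargc1b in 4. Among the regulators Esrrg, an orphan receptor, was in 5 Tle4 lists and 1 Cux2 list.

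The 16 citric acid cycle genes stood at 89.1% early and 87.5% late in Cux2 and at 79.7% and 50.0% in Tle4, and the 17 glycolytic genes at 88.2%, 79.4%, 77.9% and 52.9%. The 77 mitochondrial ribosomal genes stood at 81.2%, 64.9%, 62.3% and 35.1%, close to the 80.8%, 69.2%, 65.9% and 33.0% of the respiratory chain, and the 84 cytosolic ribosomal genes at 91.1%, 79.8%, 85.4% and 48.2%. All protein-coding genes stood at 42.9%, 36.2%, 34.5% and 19.03%. All these lists shared the lower share in late Tle4 lists, and no difference between them was tested.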

How the data were processed

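ATAC-seq libraries of sorted Cux2 and Tle4 neurons were aligned by the authors with Bowtie2 to NCBIM37 (mm9), duplicates were removed with Picard, peaks were called with MACS2, and both replicates of a class and age were reduced to 1 list by an irreproducible discovery rate. A shift of reads for the Tn5 cut is not given in the sources used here. In the deposited lists column 7 was used as the fold enrichment (ratio) at the summit, column 8 as −log10 p, and the last column as the summit offset. The depth per library is not in the lists, so no interval from counts could be given, and peaks missing from a list may lie under its own limit (lowest −log10 p of 11.4 to 22.0).

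Promoter peaks were found with GENCODE vM1 transcripts of NCBIM37 (Python 3.11.15, NumPy 2.4.6, pandas 2.3.3). The 2 identifiers of Ndufb8 were merged. Percentile ranks were taken among all peaks of a list on chromosomes 1 to 19, X and Y. The 60 mitochondrial peaks were left out. Heights were tested with limma 3.58.1 (R 4.3.3, trended eBayes, Benjamini-Hochberg over all genes tested, threshold 0.05), and single members by exact permutation. For stage, both counted the Cux2 and Tle4 lists of an age as separate units, which can make p too small. Both were tested on simulated data with independent lists. The members and the gene lists were chosen with earlier results of these data known. Genes were named by rule: those in 0 or in 1 to 6 lists, the highest mean rank in each complex and in all, the lowest adjusted p in each direction, complex II and the restricted isoforms. Some genes that this rule covers are not reported here. Others named are examples of counts, chosen after their values were seen. Sequences were read with pysam 0.24.0 from the NCBIM37 genome.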

Additional observations from a re-analysis of the deposited data

Results flagged for a closer look

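In groups of 4 early lists, 38 groups of values of members and of the member share and median were examined for a list far from the others, and 3 were flagged, where chance flags about 1 in 20. Cox7c had a percentile rank of 94.6 in Cux2 P7, against 99.5 to 99.8 in the other early Cux2 lists. Ndufa5 had a rank of 44.9 in Cux2 E18.5, against 0.814 to 3.84 in the others. Ndufa3 had a rank of 31.95 in Tle4 E18.5, against 66.9 to 71.9. Outside the comparisons, the lists held 60 peaks on the mitochondrial chromosome, which encodes the other subunits of complexes I, III, IV and V, with 2 to 7 in a list.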

How the results depend on the processing

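The late minus early difference of the member share was -22.3 points (mean of both classes), where all genes differed by -6.69 in Cux2 and -15.5 in Tle4. The member difference kept its sign under 19 of 19 alternatives and ranged from -30.5 to -14.0 on leaving out 1 list. Without Cux2 P21 the Cux2 difference alone was 4.95 points, and without Cux2 P48 it was -28.0. The class difference of 22.0 points was 6.23 with a common −log10 p limit and 2.20 with equal list length (17.4 to 24.6 on leaving out 1 list). The difference between the classes' stage changes (21.4 points) became -17.3 with equal list length, and was 4.95 without Cux2 P48 and 37.9 without Cux2 P21. The mean of the median ranks (69.9) was 53.0 among promoter peaks only and 63.8 with equal list length (69.0 to 71.0 on leaving out 1 list). Members in all 12 lists numbered 20, and 9 with equal list length (20 to 28 on leaving out 1 list, 28 without Tle4 P21).

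Members called by stage numbered 5. There were 3 with core members (77 genes, which still hold Cox4nb and Atp5l-ps1), 2 with the common limit, 1 with equal list length, 9 without centring, 11 with peaks in at least 6 lists (4 higher, 7 lower, with Atp5s, Cox8a and Ndufaf2 the calls in common with the 5) and 17 by exact permutation (5 to 6 on leaving out 1 list). With peaks in at least 6 lists, the calls of Ndufa10, Atp5d and Cox5b rest on Cux2 P48 alone among the late lists. Of all genes, limma called 530 as higher and 350 as lower with centring, 22 and 1764 without, and 211 and 148 with equal list length. Members called by class numbered 1, and 0 with the common limit, equal list length, quantile normalization, ranks or exact permutation, 4 without centring and 8 with peaks in at least 6 lists (0 to 1 on leaving out 1 list). The class-by-stage difference called 0 members by limma under every alternative run, with 4 at an unadjusted p under 0.05. No paired analysis was possible because each list pools both replicates, so replicate numbers pair nothing (classes were matched by age). The causes were not tested. List length limits what absence of a peak can show.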
